A study of Bos taurus with 48 samples.

Results

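The cytosolic ribosomal protein genes encode the proteins of the ribosomes that translate messenger RNA in the cytoplasm. Members were chosen by name: an array feature was taken when its gene name, or the symbol closing its description, followed the naming pattern of a large subunit protein (RPL), a small subunit protein (RPS, RPSA) or a stalk protein (RPLP0, RPLP1, RPLP2). Of 21475 features, 78 matched, and these named 75 genes. A filter on signal kept 14690 features and 74 of the 75 genes: 42 of the large subunit, 29 of the small subunit and 3 of the stalk. RPL3L, a striated muscle copy of RPL3, was the gene that did not pass, which met the limits of a signal of 80 and of spots well above background together in 16 of 44 samples where 22 were asked for (mean sample signal 80.8). The pattern found no feature for RPSA, RPL3, RPL22L1, RPL39L or RPL10L.

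The study sampled the endometrium of 22 dairy cows on day 17 of a synchronised reproductive cycle. Of these, 12 were pregnant after transfer of a grade 1 embryo on day 7, and 10 were cyclic cows without an embryo. Each cow gave caruncular endometrium, the aglandular sites where the placenta attaches, and intercaruncular endometrium, the glandular tissue between them. Every sample was labelled with Cy5 and set on a 2-colour array against a Cy3 pool of all samples. Pregnant cows carried a label of embryo size, with 7 large embryos (over 20 cm and over 75 mg) and 5 small embryos (under 20 cm and under 40 mg). They also carried a fertility label, 6 fertile and 6 sub-fertile, with 3 fertile and 4 sub-fertile cows among those with large embryos and 3 fertile and 2 sub-fertile cows among those with small embryos.

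A ribosome is built from a large and a small subunit, each a ribosomal RNA core with many proteins on it. The small subunit reads the messenger RNA, the large subunit joins the amino acids, and the stalk on the large subunit recruits the factors that drive elongation. Messenger RNAs of these proteins share a pyrimidine-rich start that places their translation under control of the mTOR pathway, and the endometrium of early pregnancy makes large amounts of secreted protein under progesterone and, in cattle, interferon tau from the embryo.

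Values are log2 ratios of a sample over the pool, with the median of all features on the array set to 0. Members were bright: 59 of the 74 genes lay among the brightest 10% of features (1469 features), and all 74 genes were well above background on every array that measured them. RPL27 was a dim feature, with a mean sample signal of 168, and met the limits in 37 of 44 samples. The share of spots well above background was 71.7 to 84% on the 13 caruncular pregnant arrays, 70.5 to 81.4% on the 13 caruncular cyclic arrays, 71.3 to 85.4% on the 12 intercaruncular pregnant arrays and 70.5 to 77.5% on the 10 intercaruncular cyclic arrays. On 3 arrays of 1 slide, all of caruncular cyclic samples, member spots were saturated (cows are named here by state and number, as their labels write them): 52 genes for cow Non-Pregnant_3811, 40 for cow Non-Pregnant_2970 and 27 for the first array of cow Non-Pregnant_9778. A saturated spot cannot show its full ratio, so values without these 3 cows are given below for counts and for some of the genes.

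The median over the 74 genes placed each sample on 1 scale. In caruncular endometrium it ran from -0.17 (cow Pregnant_3956) through a median of 0.14 to 0.42 (cow Pregnant_977) in the 12 pregnant cows, and from -0.07 (cow Non-Pregnant_3811) through 0.47 to 0.92 (cow Non-Pregnant_9786) in the 10 cyclic cows. In intercaruncular endometrium it ran from 0 (cow Pregnant_3805) through 0.14 to 0.40 (cow Pregnant_3807) in pregnant cows, and from 0.30 (cow Non-Pregnant_2970) through 0.36 to 0.83 (cow Non-Pregnant_9786) in cyclic cows. The groups overlapped in both tissues. The caruncular cyclic samples reached lowest in cows Non-Pregnant_3811 and Non-Pregnant_2970, with medians of -0.07 and 0.14, and the repeat array of cow Non-Pregnant_9778 was higher than its first by a median of 0.51 over the genes measured on both (47 members on the first). Cow Non-Pregnant_9786, scanned on the last of 3 scan dates, was the highest cyclic cow in both tissues, above the group mean in 62 of 74 genes in caruncular and 59 of 74 in intercaruncular endometrium. The plot of the median per sample shows these positions.

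**Figure D1:**
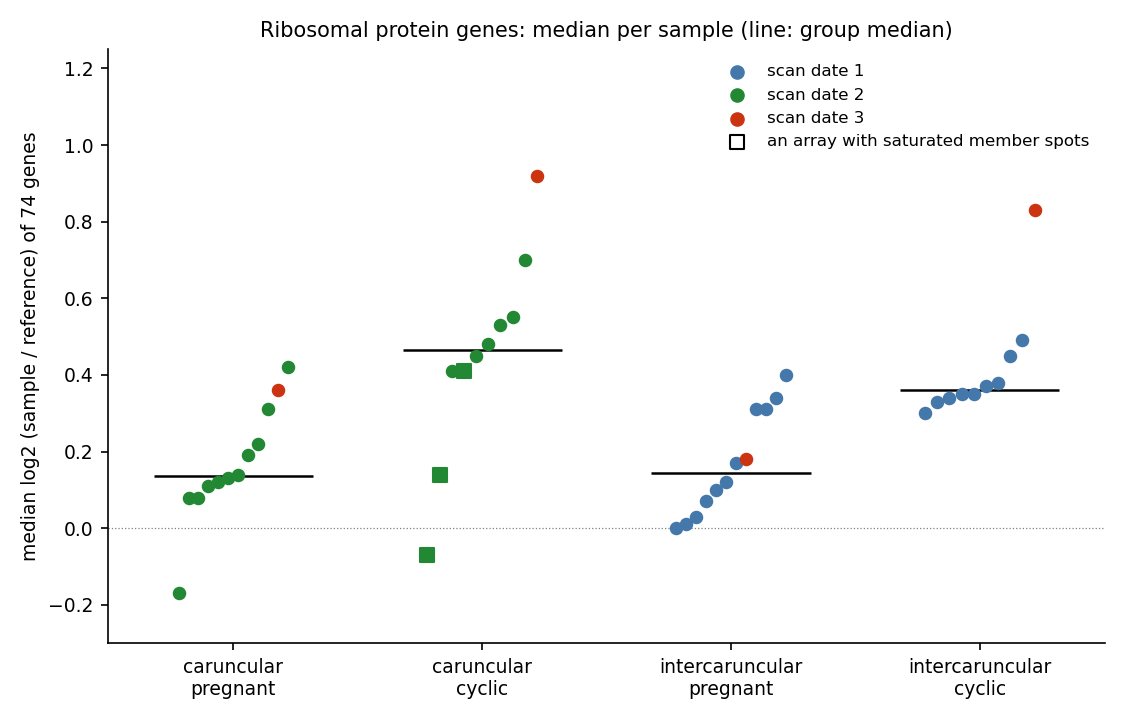
Median log2 ratio over the 74 ribosomal protein genes in each sample (vertical axis) by tissue and state, coloured by scan date, with squares for arrays that held saturated member spots and a line at each group's median. Group medians are 0.14 and 0.47 in caruncular and 0.14 and 0.36 in intercaruncular endometrium, pregnant and cyclic in turn, and pregnant cows were also lower in the median of the genes' changes under each scaling tried.

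The first question was whether pregnancy altered these transcripts in caruncular endometrium. Ribosomal protein transcripts were lower there in pregnant cows: 29 of 74 genes (39.2%) fell and 0 rose at an adjusted p under 0.05 in limma, where 26.9% of all features were called and 15.4% were called lower. RPL4, whose protein lines the tunnel through which the growing chain leaves the ribosome, fell most, 1.63-fold (log2 change -0.70, SE 0.18, n = 12 and 10). The median change over the 74 genes was -0.28 against -0.04 over all features tested, and 69 genes (93.2%) had a change below 0 against 56.9% of all features. Fewer cells of a type and less RNA per cell cannot be told apart in these bulk samples. By the rule that also asks for a change of at least 1.5-fold, 8 genes (10.8%) fell and 0 rose, where 9.99% of all features were called and 4.21% were called lower.

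Bright features as a whole moved less. Of the brightest 10%, 31.8% were called, 19.7% lower, with a median change of -0.07. The direction of the family did not turn with the scaling: its median change was -0.25 with normexp and loess, -0.28 without centring, -0.29 in the deposited value table and -0.24 without dye normalization. The count did move: without dye normalization 11 of 74 genes (14.9%) were called, all lower, a smaller share than the 28.2% of all features called in both directions.

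Of the large subunit, 14 of 42 genes fell, with a median change of -0.26. RPL4 was between -1.33 and 0.40 in pregnant cows, median -0.28, and between -0.31 and 0.64 in cyclic cows, median 0.44. Cows Pregnant_3805 and Pregnant_9921 were lowest, at -1.33 and -1.30, and 5 of 12 pregnant cows lay below every cyclic cow (adjusted p = 0.00517, lower than the cyclic mean in 11 of 12). RPL34, another large subunit protein, was between -0.77 and 0.38 in pregnant cows, median 0.03, and between -0.04 and 0.91 in cyclic cows, median 0.63. It fell by 0.64 (SE 0.14, adjusted p = 0.00149), with 12 of 12 pregnant cows below the cyclic mean, and the groups overlapped, with cyclic cow Non-Pregnant_2952 lowest at -0.04 and pregnant cows Pregnant_932 and Pregnant_9246 at 0.38 and 0.37. RPL35A, mutated in some cases of Diamond-Blackfan anaemia, was between -0.88 and 0.97 in pregnant cows, median 0.28, and between -0.28 and 1.45 in cyclic cows, median 1.03. The lowest cyclic value was the saturated sample of cow Non-Pregnant_3811, and RPL35A fell by 0.66 (SE 0.20, adjusted p = 0.0187), on the lower side in 10 of 12 pregnant cows. The call of RPL35A was lost without dye normalization, at -0.52 (adjusted p = 0.0934).

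The small subunit had 14 of 29 genes that fell, with a median change of -0.37. RPS4X, the copy of RPS4 encoded on the X chromosome, was between -1.07 and 0.23 in pregnant cows, median -0.23, and between 0.14 and 1.31 in cyclic cows, median 0.36. Only cows Pregnant_932, Pregnant_977 and Pregnant_9790 reached the cyclic range, so 9 of 12 pregnant cows lay below every cyclic cow (change -0.66, SE 0.14, adjusted p = 0.00181, 12 of 12 on the lower side). RPS6, the substrate of the S6 kinases in the mTOR pathway, was between 0 and 0.91 in pregnant cows, median 0.35, and between -0.03 and 2.04 in cyclic cows, median 1.10. Cow Non-Pregnant_9786 was the high end and the saturated sample of cow Non-Pregnant_3811 the low end of the cyclic cows, so no pregnant cow lay below every cyclic cow although 12 of 12 were below the cyclic mean (change -0.64, SE 0.17, adjusted p = 0.00992). RPS6 was not called without dye normalization, at -0.49 (adjusted p = 0.0859). RPS18, a protein of the small subunit head often used as a reference gene, fell by 0.35 (SE 0.11, adjusted p = 0.0197, 12 of 12 on the lower side).

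RPS27L, a p53-induced copy of RPS27, was between -1.0 and 0.20 in pregnant cows, median -0.28, and between -0.22 and 0.57 in cyclic cows, median 0.19. The lowest was cow Pregnant_3956, and 7 of 12 pregnant cows lay below every cyclic cow (change -0.50, SE 0.12, adjusted p = 0.00404, 11 of 12 on the lower side). Its parent RPS27 fell by 0.23 (SE 0.07, adjusted p = 0.0256, 11 of 12). RPL7 fell by 0.28 (SE 0.10, adjusted p = 0.0418, 11 of 12), with no call in 8 of 16 other settings, while its nucleolar relative RPL7L1 had a change of 0.08 (adjusted p = 0.312). Copies of this kind share sequence with one another and with pseudogenes, so which transcript a feature measured is uncertain.

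On the stalk, RPLP2 was between -1.02 and 0.19 in pregnant cows, median -0.27, and between -0.31 and 1.09 in cyclic cows, median 0.15. The groups overlapped over most of their range, with cow Pregnant_3956 far down and cyclic cow Non-Pregnant_9778 far up. The first array of cow Non-Pregnant_9778 gave no value for RPLP2, so this high value is that of its repeat array alone, from the last scan date. RPLP2 fell by 0.41 (SE 0.15, adjusted p = 0.0485, 11 of 12 on the lower side), and 7 of 16 other settings gave it no call. RPLP1 had a change of -0.20 (adjusted p = 0.142) and RPLP0, the scaffold of the stalk, of -0.08 (adjusted p = 0.784). Of 16 other settings 1 called RPLP1 and 2 called RPLP0, with changes down to -0.50 and -0.35. For RPLP0, cyclic cows Non-Pregnant_3811 and Non-Pregnant_2970, whose arrays held saturated spots, lay at -0.32 and -0.60.

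Other genes given in every comparison did not pass the test in this tissue. RPL19 had a change of -0.19 (adjusted p = 0.32), RPS9 of 0.07 (0.78), RPL13A of -0.12 (0.428) and RPL22 of -0.06 (0.671). Of 16 other settings 2 called RPL19, whose change went down to -0.44, and 0 called RPS9, RPL13A or RPL22. For RPS27A, made as a fusion with ubiquitin, the change was -0.35 (adjusted p = 0.112). RPL10, RPL26, RPL41 and RPL39 had changes of -0.22, -0.25, -0.17 and -0.11, and RPL26L1 of -0.07, with adjusted p from 0.263 to 0.53. RPL10, RPL26 and RPL41 were called in 1, 2 and 2 of 16 other settings, with changes down to -0.53, -0.52 and -0.50. RPL39 and RPL26L1 were called in 0. Further falls, named after their values were seen, were those of RPL17 (-0.61), RPS7 (-0.59), RPS21 (-0.57), RPS19 (-0.56) and RPL18 (-0.54).

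Saturated spots bore on the size of the fall. With saturated spots left out, 52 genes were called (27.2% of all features) and 17 by the 1.5-fold rule (10.1%), and the median change was -0.44. Without cows Non-Pregnant_3811, Non-Pregnant_2970 and Non-Pregnant_9778, an alternative chosen after seeing the data, 47 genes fell, 28 of them among the 29, and 16 fell by the 1.5-fold rule. Of all features 22% and 9.91% were then called, higher and lower together. RPL4 then changed by -0.65, RPS4X by -0.75, RPL34 by -0.62 and RPS6 by -0.83.

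Slides of 4 arrays held mostly 1 state. In this tissue slide 7 held both, with 3 pregnant cows and cyclic cow Non-Pregnant_3972, and so did slide 10, with repeat arrays of cows Pregnant_926 and Non-Pregnant_9960 and the array of cow Pregnant_9790. With every array counted, repeats included, the median difference was -0.26 within slide 7 and -0.30 within slide 10, each with 62 of 74 genes below 0. It was -0.19 (63 genes below 0) among the 11 pregnant and 9 cyclic arrays of the second scan date, and -0.48 (70 genes) among the 2 pregnant and 4 cyclic arrays of the last. A repeated sample took the slide of its first array in the blocked fits. Shares in brackets are of all features called, higher and lower together. With the slide as a fixed block, which then leaves the comparison to slide 7, limma called 0 genes (0.395% of all features) and 10 had an unadjusted p under 0.05; with the slide as a random block 19 fell (15.5%).

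The same question was put to intercaruncular endometrium. Here 22 genes fell and 1 rose, 23 of 74 (31.1%), where 20.3% of all features were called and 11.1% were called lower. RPL4 again fell most, 1.81-fold (log2 change -0.86, SE 0.19, n = 12 and 10), and the gene that rose was RPL27 of the large subunit. The median change was -0.20 against -0.01 over all features, and 64 genes (86.5%) had a change below 0 against 52.5% of all features. The 1.5-fold rule called 5 genes (6.76%), all lower, where 7.24% of all features were called and 3.25% were called lower. Of the brightest 10% of features 23.9% were called, 10.7% lower, with a median change of 0.

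The direction of the family did not turn with the scaling: the median change was -0.20 with normexp and loess or without centring, -0.18 in the deposited value table and -0.45 without dye normalization. In that last setting 52 genes were called, 51 of them lower, and 27 by the 1.5-fold rule. Of all features 21.7% and 8.76% were then called, higher and lower together.

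In the large subunit 11 of 42 genes were called, 10 of them lower, with a median change of -0.19. RPL4 was between -1.05 and 0.52 in pregnant cows, median -0.14, and between -0.29 and 1.21 in cyclic cows, median 0.85. Cow Non-Pregnant_9786 was the lowest cyclic cow by a wide margin, and 12 of 12 pregnant cows were below the cyclic mean, 5 of them below every cyclic cow (adjusted p = 0.00349). RPL34 was between -0.52 and 0.62 in pregnant cows, median -0.10, and between 0.25 and 1.02 in cyclic cows, median 0.66. It fell by 0.67 (SE 0.14, adjusted p = 0.00156, 12 of 12), and the 4 pregnant cows that overlapped the cyclic range all carried small embryos. RPL19, which reaches across to the small subunit, was between 0.02 and 0.91 in pregnant cows, median 0.44, and between 0.66 and 1.28 in cyclic cows, median 0.74. It fell by 0.35 (SE 0.10, adjusted p = 0.0187, 11 of 12), with 9 pregnant cows below every cyclic cow. RPL41, among the shortest proteins known, fell by 0.28 (SE 0.09, adjusted p = 0.0339, 11 of 12).

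RPL27, the dim feature, went the other way. It was between -0.67 and 0.70 in pregnant cows, median -0.15, and between -1.01 and 0.18 in cyclic cows, median -0.53. The cyclic cows were all below 0 except cow Non-Pregnant_9960, and 4 pregnant cows lay above every cyclic cow. The rise was 0.53 (SE 0.16, adjusted p = 0.0249), with 11 of 12 pregnant cows above the cyclic mean.

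For the small subunit 10 of 29 genes fell, with a median change of -0.20. RPS4X was between -0.63 and 0.49 in pregnant cows, median -0.31, and between 0.21 and 1.00 in cyclic cows, median 0.37. It fell by 0.61 (SE 0.15, adjusted p = 0.00636), with 10 of 12 pregnant cows below the cyclic mean and 8 below every cyclic cow. RPS7, which also binds the p53 regulator MDM2, was between -0.49 and 0.87 in pregnant cows, median 0.04, and between 0.46 and 1.03 in cyclic cows, median 0.77. It fell by 0.61 (SE 0.14, adjusted p = 0.00448, 11 of 12), and the 8 pregnant cows below every cyclic cow included all 7 with large embryos. RPS6 was between 0.10 and 0.84 in pregnant cows, median 0.34, and between 0.70 and 1.85 in cyclic cows, median 0.80. Cow Non-Pregnant_9786 stood alone at 1.85, and RPS6 fell by 0.49 (SE 0.13, adjusted p = 0.0108, 12 of 12), with 9 pregnant cows below every cyclic cow. RPS18 fell by 0.35 (SE 0.09, adjusted p = 0.00746, 12 of 12).

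Of the stalk, RPLP2 was between -0.36 and 0.17 in pregnant cows, median -0.04, and between -0.07 and 0.62 in cyclic cows, median 0.21. It fell by 0.30 (SE 0.09, adjusted p = 0.0223, 12 of 12), with the ranges overlapping. RPLP1 was between -0.16 and 0.69 in pregnant cows, median 0.44, and between 0.42 and 0.82 in cyclic cows, median 0.67. It fell by 0.29 (SE 0.10, adjusted p = 0.0344, 9 of 12), with cow Pregnant_932 lowest. RPLP0 had a change of -0.21 (adjusted p = 0.0901).

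No call was made in this tissue for RPS9 (change 0.13, adjusted p = 0.507), RPL13A (0.17, 0.317), RPL22 (-0.16, 0.358), RPS27 (-0.09, 0.579), RPS27L (-0.20, 0.111) or RPS27A (-0.24, 0.16). RPL10, RPL26 and RPL39 had changes of -0.35, -0.32 and -0.11, with adjusted p from 0.1 to 0.417. The pair RPL7 and RPL7L1 stood at -0.20 (adjusted p = 0.199) and 0.14 (0.191), and RPL26L1 at -0.03 (0.744).

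Slide 2 was the slide with both states here, again 3 pregnant cows and cyclic cow Non-Pregnant_3972, and within it the median difference was -0.07, with 48 of 74 genes below 0. It was -0.17 (60 genes) among samples of the first scan date and -0.71 (66 genes) between the 1 pregnant and 1 cyclic cow of the last. With the slide as a fixed block limma called 0 genes (0.899% of all features), 1 had an unadjusted p under 0.05, and the change of RPLP2 turned to 0.01; as a random block 7 were called (6.95%). For most cows, then, the slide and the state cannot be told apart in either tissue.

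The 2 tissues came from the same cows, so their lists are set side by side. There were 17 genes called in both, 58.6% of the 29 caruncular and 73.9% of the 23 intercaruncular genes, where of all features called in a tissue 50.1% of the caruncular and 66.3% of the intercaruncular ones were called in both (44.1% and 61.6% of those called lower). Among the 17 were RPL4, RPL8, RPL10A, RPL14, RPL17, RPL31 and RPL34 of the large subunit, RPS4X, RPS6, RPS7, RPS10, RPS18, RPS21 and RPS23 of the small subunit, and RPLP2 of the stalk. The plot of changes gene by gene shows both tissues.

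**Figure D2:**
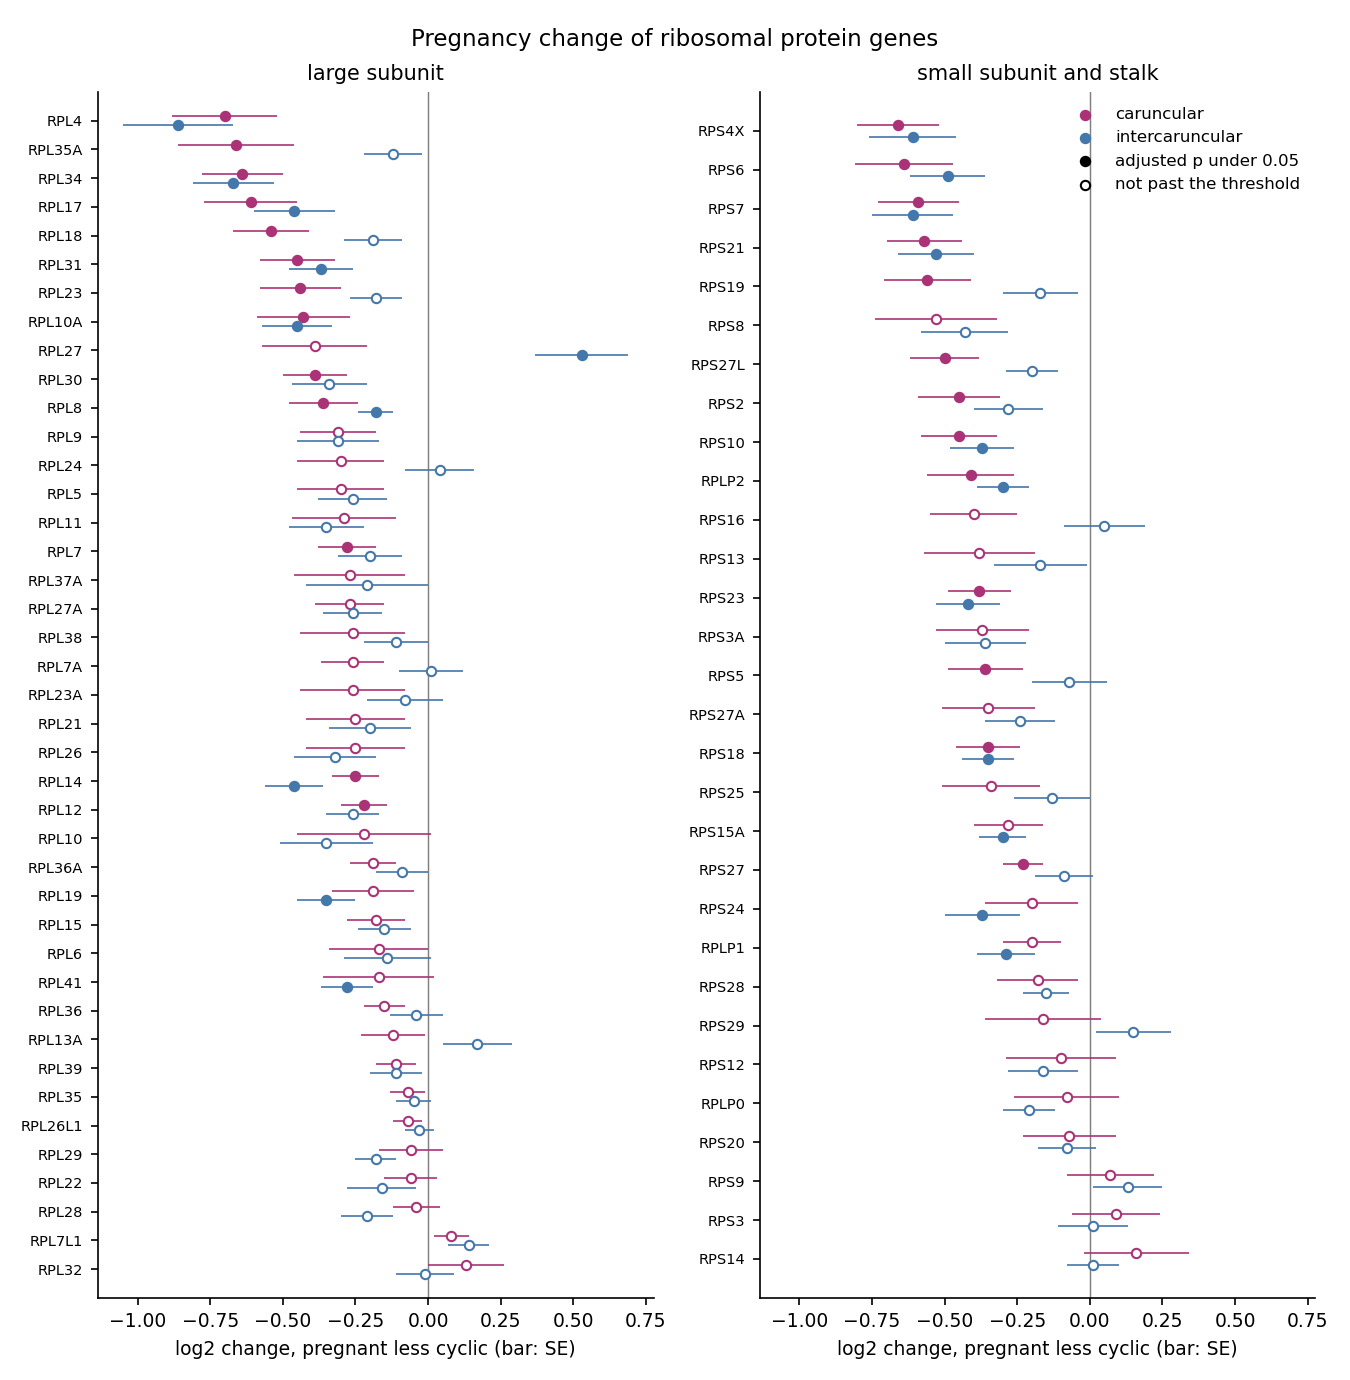
Change with pregnancy in log2 units (pregnant less cyclic, bars for the standard error) for ribosomal protein genes in caruncular and intercaruncular endometrium, large subunit in one panel and small subunit with the stalk in the other, filled where the adjusted p was under 0.05. Of the 74 genes tested 69 had a change below 0 in caruncular and 64 in intercaruncular endometrium, and the medians stayed below 0 under each scaling tried.

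**Figure D3:**
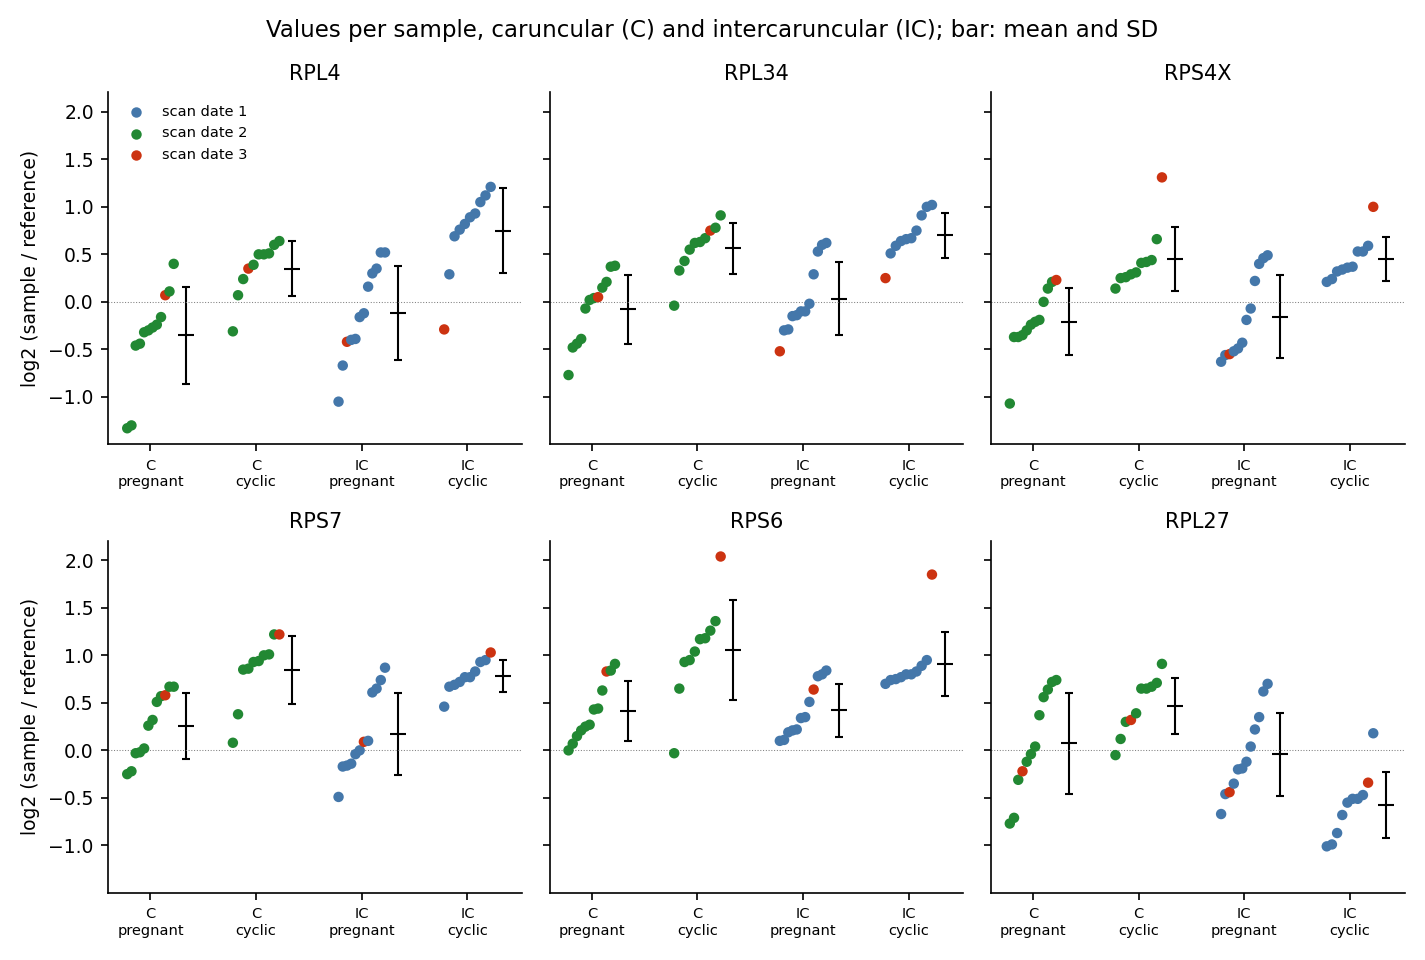
Log2 ratio over the pool (vertical axis) of RPL4, RPL34, RPS4X, RPS7, RPS6 and RPL27 in every sample, by tissue and state, coloured by scan date, with bars for the mean and SD. RPL4 to RPS6 are lower in pregnant cows in both tissues, while RPL27 in cyclic cows runs from -0.05 to 0.91 in caruncular and from -1.01 to 0.18 in intercaruncular endometrium.

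Whether the pregnancy effect differed between tissues was tested as an interaction. At an adjusted p under 0.05 limma called 0 of 74 genes, 5 had an unadjusted p under 0.05, and 0.0204% of all features (3 features) were called. The median difference of effects was -0.04 against -0.02 over all features, and it turned to 0.18 without dye normalization. RPL27 had the lowest p: its effect in caruncular less that in intercaruncular endometrium was -0.93 (SE 0.25, unadjusted p = 0.000611, adjusted p = 0.231). RPL35A stood at -0.54 (SE 0.23, adjusted p = 0.575).

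Both tissues of a cow deviated together, and with the cow as a block the interaction of RPL27 was called, at an adjusted p of 0.0449 as a fixed replicate block and 0.0101 as a random one. In all 1 and 2 of 74 genes were called in this way, where 1.02% and 2.95% of all features were called. Without the 3 cows with saturated spots the value of RPL27 was -0.69 (adjusted p = 1). The RPL27 feature itself had a saturated spot on 0 arrays, so for this gene that fit leaves out 3 cyclic cows and no saturated values. The genes given in every comparison had adjusted p from 0.683 (RPS27L, -0.30) to 0.999, with RPL13A, a protein of an interferon-gamma activated inhibitor of translation, at -0.29 (0.756).

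Genes of cell types moved with pregnancy as well. Their counts stand beside the 26.9% of all features called in caruncular and the 20.3% called in intercaruncular endometrium. Of the leukocyte markers 33.3% and 22.2% were called, and of the stromal markers 28.6% and 71.4%. All 5 smooth muscle markers were tested and 4 fell in each tissue, with median changes of -0.92 in caruncular and -1.04 in intercaruncular endometrium. Their sample median ran from -1.92 through -0.51 to 0.46 in caruncular pregnant and from -0.50 through 0.68 to 1.06 in caruncular cyclic samples, and from -1.91 through -0.85 to 0.04 and from -0.74 through 0.17 to 1.13 in the intercaruncular groups. CNN1, a calponin of smooth muscle, fell by 1.37 (adjusted p = 0.000569, 12 of 12) and by 1.35 (0.00126, 12 of 12). Of 6 endothelial markers 4 fell in each tissue (medians -0.43 and -0.48), PECAM1 by 1.29 (adjusted p = 0.000573, 11 of 12) and 1.52 (4.88e-05, 12 of 12). Their sample median ran from -0.60 through -0.35 to 0.42 in pregnant and from -0.14 through 0.19 to 0.49 in cyclic caruncular samples, and from -0.51 through -0.13 to 0.27 and from 0.03 through 0.30 to 0.83 in the intercaruncular groups.

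Of 7 stromal markers 1 rose and 1 fell in caruncular and 1 rose and 4 fell in intercaruncular endometrium, with medians of -0.32 and -0.48. Their sample median ran from -0.32 through 0.79 to 1.46 and from 0.15 through 1.03 to 1.77 in caruncular pregnant and cyclic samples, and from -0.57 through -0.27 to 0.47 and from -0.11 through 0.26 to 1.42 in intercaruncular ones. The collagen COL3A1 fell by 0.92 (adjusted p = 0.00968, 11 of 12) and 1.32 (0.000316, 12 of 12), and the receptor PDGFRA rose by 0.82 (0.00132, 10 of 12) and 0.53 (0.00167, 12 of 12). Of 6 epithelial markers 2 rose and 2 fell, and 2 rose and 1 fell; the keratin KRT7 fell by 2.07 (adjusted p = 8.48e-06, 12 of 12) and 0.75 (0.0165, 12 of 12), while CDH1 rose by 1.02 in caruncular (0.00566, 12 of 12) and CLDN4 by 1.10 in intercaruncular endometrium (0.0139, 11 of 12). The epithelial sample median was -0.78 against -0.17 in caruncular and 0.05 against -0.06 in intercaruncular groups, pregnant against cyclic, and the leukocyte one 0.15 against -0.08 and 0.22 against -0.14. Of 9 leukocyte markers tested 3 and 2 rose and 0 fell, among them CSF1R of macrophages by 0.73 (adjusted p = 0.000494, 12 of 12) and 0.61 (0.00619, 10 of 12). Red cell markers passed the filter in 0 of 2 cases and trophoblast markers in 1 of 9, PAG1, which was not called. The part of these cell type shifts in the lower ribosomal protein transcripts was not tested.

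Lists of other genes of translation are set beside the 26.9% of all features called in caruncular and the 20.3% called in intercaruncular endometrium. The elongation factor list had 8 genes tested. Of these 4 fell in caruncular and 1 in intercaruncular endometrium, with 0 rises and medians of -0.29 and -0.21. EEF1B2, which recharges the factor that brings in transfer RNA, fell by 0.62 (SE 0.13, adjusted p = 0.00103, 12 of 12) and by 0.55 (SE 0.12, adjusted p = 0.00343, 12 of 12). Of 6 ribosome associated genes 1 fell in each tissue: NACA, which shields new chains at the tunnel exit, fell by 0.51 (SE 0.08, adjusted p = 0.000153), with 12 of 12 pregnant cows below every cyclic cow, and by 0.41 (SE 0.10, adjusted p = 0.00493, 12 of 12 on the lower side). The list's medians were -0.17 and -0.11.

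Mitochondrial ribosomal proteins, which serve a separate ribosome, had medians of 0.01 and -0.01 over 69 genes tested, with 10 rises and 5 falls in caruncular and 11 rises and 3 falls in intercaruncular endometrium. MRPL44 rose by 0.49 (adjusted p = 0.00699, 12 of 12) and MRPL52 fell by 0.28 (0.00584, 12 of 12) in the former, and MRPL32 rose by 0.52 (0.0395, 11 of 12) and MRPS26 fell by 0.32 (0.0145, 12 of 12) in the latter. Of 35 initiation factors 4 rose and 6 fell, and 5 rose and 3 fell, with medians of -0.01 and 0.04. EIF4G3, a scaffold of the cap-binding complex, rose by 0.46 (adjusted p = 0.00158, 12 of 12) and PABPC1, which binds poly(A) tails, fell by 0.41 (0.0442, 9 of 12) in caruncular endometrium. In intercaruncular endometrium the helicase EIF4A1 rose by 0.44 (0.049, 10 of 12) and EIF1B fell by 0.28 (0.0103, 11 of 12).

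Ribosome biogenesis genes numbered 48, with 2 rises and 3 falls in caruncular and 1 rise and 3 falls in intercaruncular endometrium and medians of -0.06 and -0.03. SBDS, which readies the large subunit for translation, rose by 0.39 (adjusted p = 0.023, 9 of 12) and 0.41 (0.00671, 11 of 12), UTP6 fell by 0.30 in caruncular (0.00595, 12 of 12) and NOC3L by 0.43 in intercaruncular endometrium (0.00749, 12 of 12). In the mTOR and S6 kinase pathway 19 genes were tested, with 2 rises and 4 falls and with 2 rises and 0 falls, medians -0.14 and -0.07. SESN2, a brake on mTOR, rose by 1.03 (adjusted p = 0.00158, 12 of 12) and the kinase AKT1 fell by 0.36 (0.00511, 11 of 12) in caruncular endometrium, and RHEB, the activator of mTOR, rose by 0.60 (0.000241, 12 of 12) in intercaruncular endometrium. The list of eIF2 kinases and interferon-linked brakes on translation also holds genes that act downstream of the kinases. Of its 9 genes tested 4 rose and 1 fell, and 4 rose and 0 fell, with medians of 0.24 and -0.04. IFIT3, an interferon-induced gene, rose by 4.57 (adjusted p = 1.41e-09, 12 of 12) and 3.56 (1.6e-07, 12 of 12), and the kinase EIF2AK3 fell by 0.21 in caruncular endometrium (0.0106, 11 of 12). Of 17 cell division genes 2 rose and 2 fell, and 2 rose and 0 fell, with medians of -0.04 in both. Cyclin CCNB2 rose by 2.03 (adjusted p = 1.66e-06, 12 of 12) and 1.44 (0.000245, 12 of 12) and CCNB1 fell by 1.36 in caruncular endometrium (0.0114, 11 of 12).

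Embryo size was compared among the pregnant cows, 7 with large and 5 with small embryos. In intercaruncular endometrium 9 of 74 genes (12.2%) were lower with a large embryo and 0 were higher, where 3.69% of all features were called and 2.12% were called lower. RPS4X fell most, 1.72-fold (log2 change -0.78, SE 0.11). The median change was -0.16 against -0.01 over all features, 54 genes (73%) were below 0 against 51.7%, and 25 genes had an unadjusted p under 0.05. The median was -0.16 with normexp and loess or without centring, -0.19 without dye normalization and -0.15 in the deposited value table, so the direction did not turn with the scaling. Among the brightest 10% of features 4.77% were called, 3.13% lower, with a median of -0.04.

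Of the genes called 5 belonged to the large subunit, 4 to the small subunit and 0 to the stalk. RPL17, which reaches into the exit tunnel, was between -0.17 and 0.11 with large embryos, median -0.02, and at 0.28, 0.53, 0.56, 0.64 and 0.71 with small ones. The groups did not overlap, with 7 of 7 cows on the lower side, and the nearest small-embryo cow was Pregnant_3956 (change -0.59, SE 0.09, adjusted p = 0.0125). RPL34 was between -0.52 and -0.02 with large embryos, median -0.14, and at -0.15, 0.29, 0.53, 0.60 and 0.62 with small ones. The overlap was due to cow Pregnant_3956, the small-embryo cow at -0.15, and 3 of 7 cows lay below it (change -0.59, SE 0.14, adjusted p = 0.0425, 7 of 7 on the lower side). RPL26, which binds the p53 messenger RNA, was between 0.21 and 0.48 with large embryos, median 0.31, and at 0.44, 0.83, 0.85, 0.96 and 0.97 with small ones. Cow Pregnant_3956 was again the lowest small-embryo cow, and 5 of 7 large-embryo cows lay below it (change -0.47, SE 0.10, adjusted p = 0.0329, 7 of 7 on the lower side).

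RPS4X was between -0.63 and -0.19 with large embryos, median -0.52, and at -0.07, 0.22, 0.40, 0.46 and 0.49 with small ones. The 7 cows with large embryos lay below all 5 others (adjusted p = 0.0102). RPS7 was between -0.49 and 0.09 with large embryos, median -0.14, and at 0.10, 0.61, 0.65, 0.74 and 0.87 with small ones. Cows Pregnant_9790 and Pregnant_3956 almost met, at 0.09 and 0.10, and 7 of 7 were lower (change -0.72, SE 0.13, adjusted p = 0.0233).

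Further genes called, named after their values were seen, were RPS3A (-0.54), RPL35A (-0.47) and RPL31 (-0.44). RPL31 was between -0.07 and 0.41 with large embryos, median 0.19, and at 0.51, 0.52, 0.67, 0.70 and 0.70 with small ones, without overlap. The plot of embryo size shows these values with the caruncular ones beside them.

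**Figure D4:**
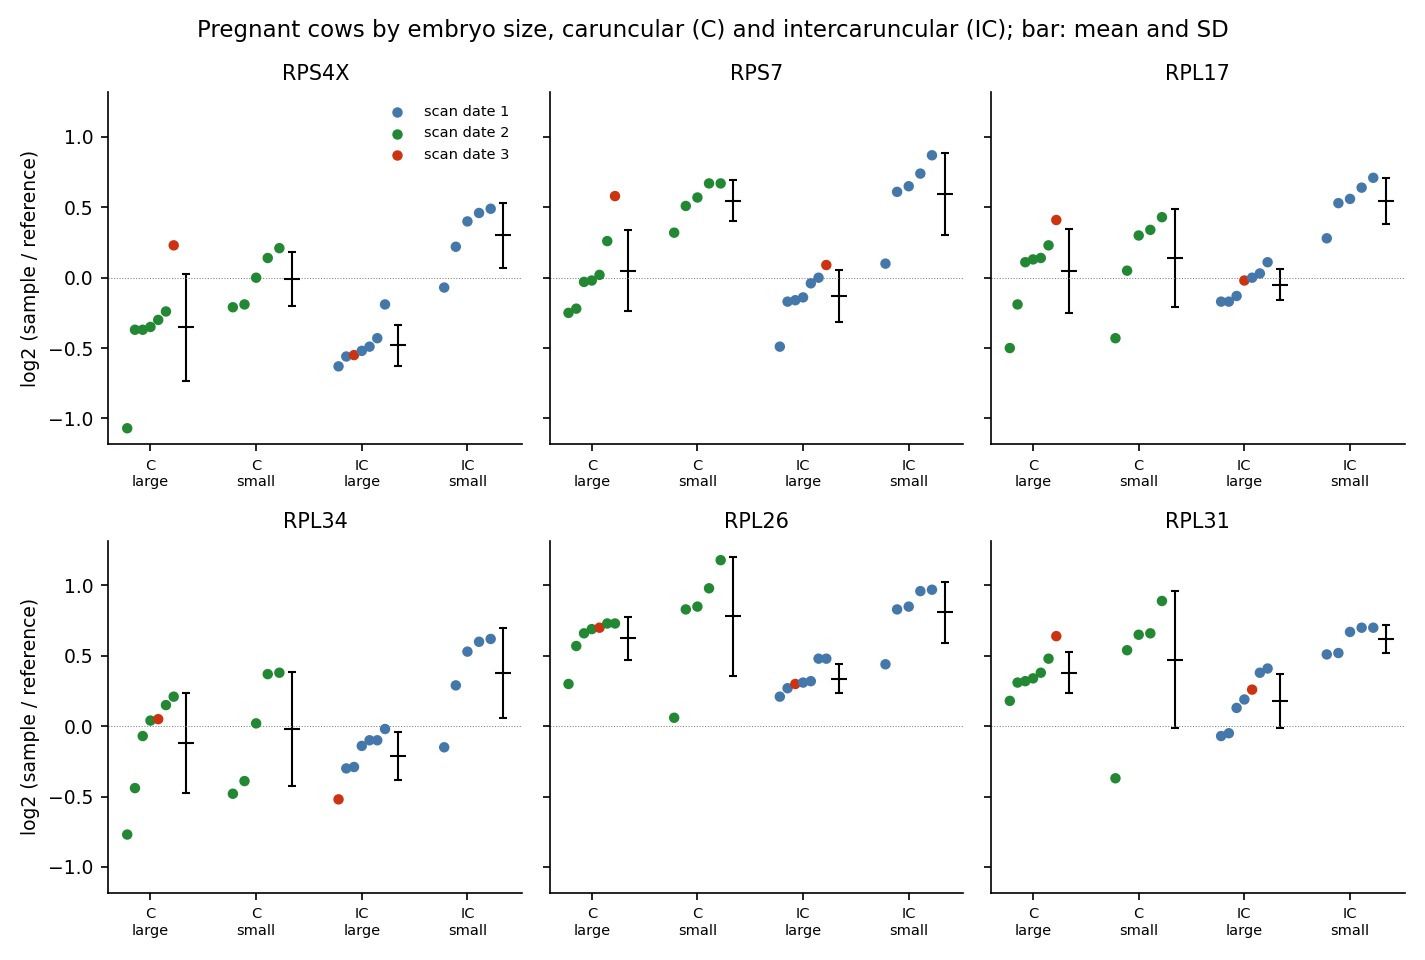
Log2 ratio over the pool (vertical axis) of RPS4X, RPS7, RPL17, RPL34, RPL26 and RPL31 in the 12 pregnant cows, by tissue and embryo size, with bars for the mean and SD. In intercaruncular endometrium the 7 large-embryo cows are below all 5 small-embryo cows for RPS4X, RPS7, RPL17 and RPL31, and in caruncular endometrium no gene was called.

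The stalk genes had changes of -0.12 (RPLP0), 0.04 (RPLP1) and 0.07 (RPLP2). RPS6 stood at -0.29 (adjusted p = 0.265), RPL19 at -0.36 (0.121), RPL41 at -0.29 (0.167) and RPL7L1 at 0.24 (0.135), none of them called. Of the 9 genes 6 (66.7%) were also called for pregnancy in this tissue, among them RPL17, RPL31, RPL34, RPS4X and RPS7, where 43.2% of all features called for embryo size were also called for pregnancy (38.8% of those lower in the first were lower in both). Both comparisons use the same pregnant cows.

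The count moved with single cows. The share of all features called with a cow left out is not given here, so members and all features cannot be compared there. It was 2 without cow Pregnant_3805, Pregnant_3807, Pregnant_9246 or Pregnant_932, 4 without Pregnant_1943, Pregnant_3957 or Pregnant_977, 5 without Pregnant_3803, 14 without Pregnant_9790 (13 lower, 1 higher) and 19 without Pregnant_3956, and it was 1 without dye normalization (2.33% of all features). Of the named genes RPS4X and RPL17 each lost the call in 1 of 25 settings, without dye normalization (adjusted p = 0.0791 and 0.164), RPS7 in 6, RPL26 in 9 and RPL34 in 13. Within slides 1, 2 and 12 the median difference was -0.31, -0.28 and -0.02, and among samples of the first scan date -0.18 (55 genes below 0).

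Other lists are set beside the 3.69% of all features called for embryo size in this tissue, 1.57% higher and 2.12% lower. Of 69 mitochondrial ribosomal proteins 5 were higher and 0 lower with large embryos (7.25% called), with a median of 0.19, among them MRPL32 (0.68, SE 0.13, adjusted p = 0.0243, 7 of 7). Of 35 initiation factors 2 were higher and 0 lower (median 0.07; EIF4A1 0.66, adjusted p = 0.0275, 7 of 7), of 48 biogenesis genes 1 was higher (median 0.11; WDR12 0.47, 0.0448, 6 of 7) and of 19 mTOR genes 1 was lower (median -0.01; RPS6KA5 -0.51, 0.0448, 7 of 7). Of 17 cell division genes 1 was higher (CCNB2 1.17, 0.0382, 7 of 7). Elongation factors, ribosome associated genes and the eIF2 and interferon list had 0 called, with medians of -0.07, -0.12 and 0.06. Among cell type markers 1 of 7 stromal genes was lower (median -0.38; COL3A1 -0.92, adjusted p = 0.0492, 7 of 7) and 1 of 6 endothelial genes (median -0.39; PECAM1 -0.93, 0.0382, 6 of 7). Smooth muscle had a median of -0.55, epithelium of 0.15 and leukocytes of 0.13, with 0 called. The part of these markers in the lower ribosomal protein transcripts was not tested.

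In caruncular endometrium embryo size gave no call. Limma called 0 of 74 genes, as it called 0% of all features, and 3 genes had an unadjusted p under 0.05. The median change was -0.05 against 0.01 over all features, with 46 genes (62.2%) below 0 against 46.3%. RPS7 had the lowest p: it was between -0.25 and 0.58 with large embryos, median -0.02, and at 0.32, 0.51, 0.57, 0.67 and 0.67 with small ones. Cow Pregnant_9790 alone among the large-embryo cows reached the small-embryo range (change -0.50, SE 0.14, adjusted p = 0.614, 6 of 7 below all small-embryo cows). RPL7A, of the large subunit, had a change of 0.19 (adjusted p = 0.705) and RPL7L1 of 0.17 (0.708). RPS4X was between -1.07 and 0.23 with large embryos, median -0.35, and at -0.21, -0.19, 0, 0.14 and 0.21 with small ones, so the groups overlapped. Within slides 5, 6 and 7 the median difference was 0.30, -0.14 and -0.28, and it was -0.09 among samples of the second scan date. The difference between tissues in the effect of embryo size was not tested.

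The fertility label, compared between 6 fertile and 6 sub-fertile pregnant cows, gave no call in either tissue. In caruncular endometrium limma called 0 of 74 genes and 0% of all features, with 16 genes at an unadjusted p under 0.05 and a median change of -0.16 against -0.03. Of the genes 59 (79.7%) were lower in fertile cows, against 55% of all features. In intercaruncular endometrium it called 0 of 74 genes and 0.0477% of all features (7 features), with 3 genes at an unadjusted p under 0.05, a median change of 0 and 38 genes below 0, but of -0.20 with 64 below 0 without dye normalization.

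RPL37A, a zinc finger protein of the large subunit, had the lowest p in both tissues. In caruncular endometrium it was between 0.08 and 0.64 in fertile cows, median 0.27, and between -0.72 and 0.08 in sub-fertile cows, median -0.45. All 6 fertile cows were at or above the highest sub-fertile cow (change 0.69, SE 0.15, adjusted p = 0.225). In intercaruncular endometrium it was between -0.24 and 1.01 in fertile cows, median 0.06, and between -0.86 and -0.06 in sub-fertile cows, median -0.59. The groups overlapped there, with 4 of 6 fertile cows above every sub-fertile cow (change 0.69, SE 0.21, adjusted p = 0.208). RPS27A had changes of 0.47 (adjusted p = 0.296) and 0.48 (SE 0.14, adjusted p = 0.209).

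Further caruncular values were those of RPL22 (-0.29, SE 0.08, adjusted p = 0.277), RPS16 (-0.47, SE 0.15, 0.278), RPS6 (-0.42, 0.278) and RPL10, which completes large subunit maturation (-0.44, 0.285). The stalk had changes of -0.15, 0.27 and -0.27 for RPLP0, RPLP1 and RPLP2, and in intercaruncular endometrium of -0.24 (SE 0.11, adjusted p = 0.365), -0.26 and -0.08. Within slide 6, with 2 cows of each label, the caruncular median difference was -0.12, and within slide 1 the intercaruncular one was 0.17. Among samples of 1 scan date they were -0.14 and -0.02. In these fertility comparisons, in the interaction and in caruncular embryo size, limma called 0 genes of every other list.

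Tissue was compared within each state, caruncular less intercaruncular. In pregnant cows 11 of 74 genes (14.9%) were called, 5 higher and 6 lower in caruncular endometrium, a smaller share than the 46.5% of all features. The largest difference was that of RPS27L, lower 1.40-fold (log2 change -0.49, SE 0.10), and RPL32 of the large subunit was highest in caruncular endometrium (0.44). The median difference was -0.01 against -0.02 over all features, with 39 genes below 0, and without dye normalization it was -0.27 against -0.11, with 68 genes below 0. By the 1.5-fold rule limma called 0 members, with 14 at an unadjusted p under 0.05, where 17% of all features were called.

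Of the genes called 10 belonged to the large subunit. RPL32 was between 0.03 and 0.65 in caruncular samples, median 0.26, and between -0.32 and 0.31 in intercaruncular samples, median -0.16. The ranges overlapped through cows Pregnant_932 and Pregnant_9790 (change 0.44, SE 0.11, adjusted p = 0.00128, 12 of 12 above the other mean). RPL15, needed to assemble the large subunit, was higher by 0.37 (SE 0.09, adjusted p = 0.00138), RPL22 by 0.36 (SE 0.10, 0.00328), RPL7L1 by 0.24 (SE 0.06, 0.000949) and RPL26L1 by 0.13 (SE 0.04, 0.015). RPL36 was lower at -0.28 (SE 0.07, adjusted p = 0.00141), RPL36A at -0.27 (SE 0.08, 0.0065) and RPL12, at the base of the stalk, at -0.20 (SE 0.08, 0.0367). RPS27L was the small subunit gene called, between -1.0 and 0.20 in caruncular samples, median -0.28, and between -0.15 and 0.45 in intercaruncular ones, median 0.25, with 9 of 12 caruncular samples below every intercaruncular one (adjusted p = 0.00012, 11 of 12 on the lower side). RPLP0, RPLP1 and RPLP2 had differences of 0.16, 0.08 and -0.17, and RPS6 of -0.01, none called.

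In cyclic cows 12 genes (16.2%) were called, 9 higher and 3 lower in caruncular endometrium, again below the 36% of all features. RPL27 was 2.06-fold higher (log2 change 1.04, SE 0.18, adjusted p = 3.41e-05) and the only member called by the 1.5-fold rule, from a feature with a mean signal of 168 (1.35%, where 12.2% of all features were called). The median difference was 0.07 against -0.02 over all features, and without dye normalization it turned to -0.52, against -0.11, with 50 of 74 genes called, 2 higher and 48 lower, more than the 45.1% of all features. A direction for the family between tissues therefore depends on the dye normalization.

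RPL27 was between -0.05 and 0.91 in caruncular cyclic samples, median 0.52, and between -1.01 and 0.18 in intercaruncular ones, median -0.53. Cows Non-Pregnant_1940 and Non-Pregnant_9960 in the former and cow Non-Pregnant_9960 in the latter made the overlap, and 8 of 10 caruncular samples lay above every intercaruncular one, all 10 above the other mean. RPL7L1 was between -0.06 and 0.27 in caruncular samples, median -0.01, and between -0.51 and -0.08 in intercaruncular ones, median -0.29. The ranges did not meet, with 10 of 10 caruncular samples higher (change 0.30, SE 0.07, adjusted p = 0.000429). RPL14, of the large subunit, was between 0.02 and 0.62 in caruncular samples, median 0.19, and between 0.37 and 0.96 in intercaruncular ones, median 0.62. It was lower in caruncular endometrium at -0.41 (SE 0.09, adjusted p = 0.000701).

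RPS19, the gene most often mutated in Diamond-Blackfan anaemia, was higher by 0.53 (SE 0.15, adjusted p = 0.00456), RPL23 by 0.49 (SE 0.13, 0.00251), RPL35A by 0.46 (SE 0.17, 0.0306) and RPL15 by 0.41 (SE 0.10, 0.00201). Without dye normalization RPS19, RPL23 and RPL35A turned to -0.07, -0.18 and -0.20. RPS27 was higher by 0.28 (SE 0.09, 0.0153) and RPL26L1 by 0.18 (SE 0.05, 0.00435), and RPL12 was lower at -0.23 (SE 0.09, 0.0329). The stalk genes, at 0.03, -0.02 and -0.07, were not called.

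Blocking on the cow as a fixed replicate block called 16 genes in pregnant (62.7% of all features) and 27 in cyclic cows (18 higher, 9 lower, 55.4%), and as a random block 18 (8 higher, 10 lower, 62%) and 28 (18 higher, 10 lower, 54.4%). With saturated spots left out 23 were called in cyclic cows (21 higher, 2 lower, 36.3%), without the 3 cows with saturated spots 14 (19.1%), and without the 2 cows scanned only on the last date 25 (17 higher, 8 lower, 43.1%). In pregnant cows 24 were called without dye normalization (2 higher, 22 lower, 53.7%), where RPL26L1 turned to -0.06. Almost every slide and scan date held 1 tissue. Within the last scan date, the only one with both, the median difference was 0.20 in cow Pregnant_9790 and 0.11 in cow Non-Pregnant_9786, and otherwise scan date and tissue cannot be told apart.

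Stromal markers set the tissues apart more widely, 7 of 7 higher in caruncular endometrium of pregnant cows (median 0.91) and 4 of 7 in cyclic cows (median 0.62), with LUM at 1.26 (adjusted p = 1.14e-05, 12 of 12) and 0.98 (0.0015, 9 of 10). Epithelial markers had 1 higher and 4 lower (median -0.75), and 0 higher and 2 lower (median -0.21); leukocyte markers had 2 lower in each state, endothelial markers 1 and 2 lower, and smooth muscle markers 2 and 1 higher. Mitochondrial ribosomal proteins had 5 higher and 20 lower (36.2% called), and 4 and 14 (26.1%), and biogenesis genes 6 and 14 (41.7%), and 5 and 8 (27.1%), all below the 46.5% and 36% of all features called. Initiation factors had 8 higher and 6 lower, and 7 and 1, elongation factors 0 and 2, and 1 and 0, the mTOR list 3 and 7, and 3 and 2, and ribosome associated genes 1 and 2, and 1 and 1. The eIF2 and interferon list had 4 higher and 2 lower, and 2 and 3, and cell division 2 and 3, and 1 and 2. The part of these markers in the tissue differences was not tested. The plot of shares called sets the members beside all features in every comparison.

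**Figure D5:**
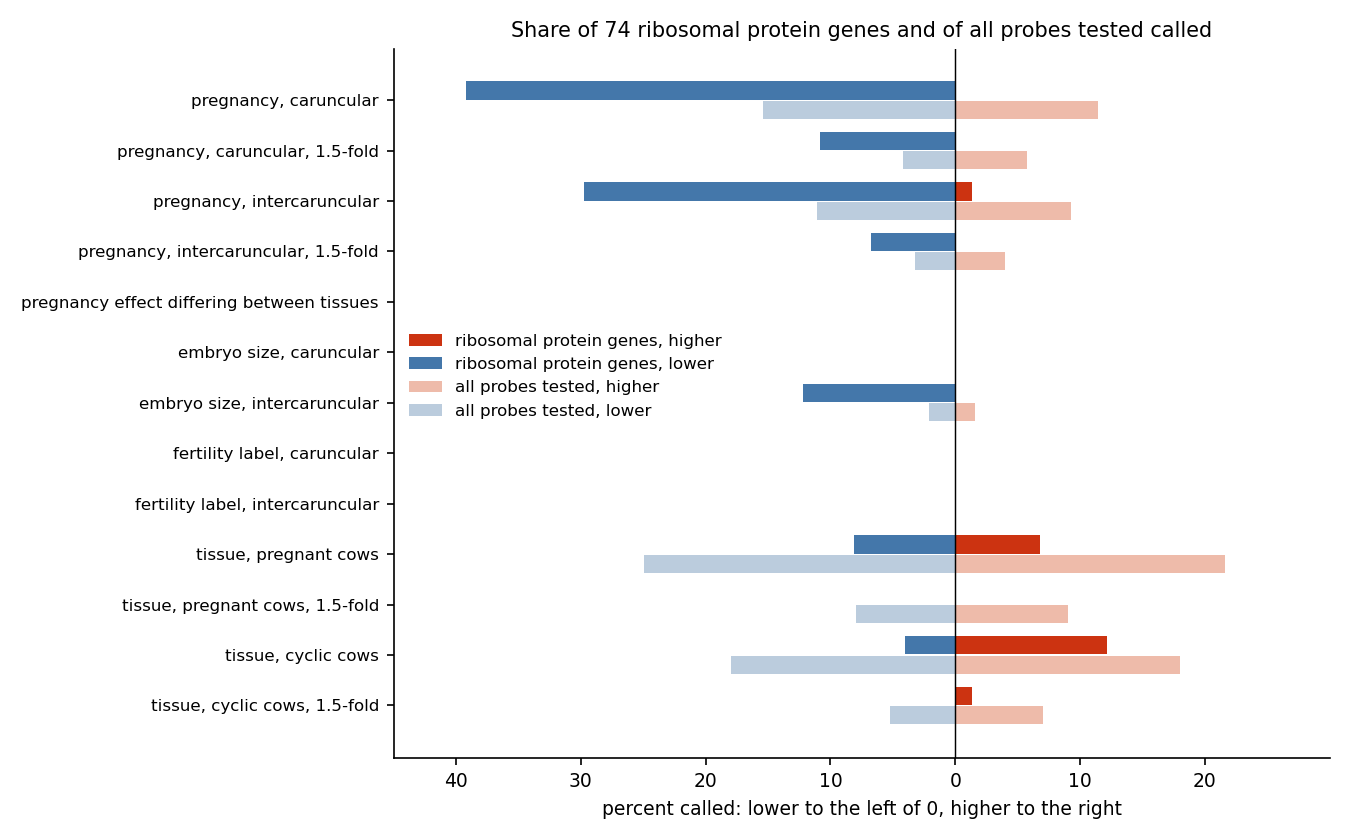
Percent of the 74 genes and of all features tested that were called in each comparison and by each rule (horizontal axis), lower to the left and higher to the right. The members exceed all features among those called lower with pregnancy (39.2% against 15.4% in caruncular endometrium) and are fewer than all features between tissues. In caruncular endometrium 11 members were called for pregnancy without dye normalization (28.2% of all features), and 0 when slides were fixed blocks (0.395%). Between tissues of cyclic cows the lower share did not hold without dye normalization, where 50 of 74 members were called (2 higher, 48 lower) against 45.1% of all features.

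Some features name the same gene or a near copy. A second feature of RPL15 had a difference of 0.55 between tissues of pregnant cows (adjusted p = 0.00247) and a pregnancy change of 0.08 in caruncular endometrium (0.706). Of the features of RPS15A, the brightest fell by 0.30 with pregnancy in intercaruncular endometrium, while one whose description carried another gene's symbol rose by 0.44 in caruncular (SE 0.10, adjusted p = 0.00335) and 0.27 in intercaruncular endometrium (0.0312), so they disagree. Through a reference of current gene names 7 further genes were found. Of these RPS26 fell by 0.81 in caruncular endometrium (adjusted p = 0.00139), with 12 of 12 pregnant cows below every cyclic cow, and by 0.78 in intercaruncular endometrium (0.0193). RPS15 fell by 0.42 (adjusted p = 0.0186) and RPL3 by 0.23 (0.049) in caruncular endometrium, and RPSA, also known as a laminin receptor, had changes of -0.20 (0.151) and -0.07 (0.532). RPL13, RPL10L and RPL22L1 were not called for pregnancy, with changes of -0.22, -0.34 and -0.08 in caruncular and 0.01, -0.29 and -0.24 in intercaruncular endometrium, and RPL10L was lower in caruncular endometrium of pregnant cows (-0.36, adjusted p = 0.0239, 11 of 12). The reference also gives the name RPL11 to 2 features described under another gene's symbol. With large embryos in intercaruncular endometrium 1 of them was higher (0.54, SE 0.12, adjusted p = 0.034, 7 of 7) and the other not called (0.16, adjusted p = 0.75).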

How the data were processed

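Data. The scanner text files hold, per the file headers, a log10 ratio of sample over pool after LOWESS dye normalization by Feature Extraction 9.5.3.1. The log10 ratio deposited by the authors was multiplied to log2. Signal intensity, as deposited in arbitrary scanner units, was used for the filter and not as a result. Spots marked as non-uniform, population outlier or by hand were dropped, spots of a feature averaged, the array median of all non-control features subtracted, and the repeat arrays of 4 caruncular samples (cows Pregnant_926, Non-Pregnant_9960, Non-Pregnant_9778 and Non-Pregnant_9813) averaged, which gave 44 samples from 48 arrays on 12 slides and 3 scan dates.

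Filter and genes. A feature passed where at least 22 of 44 samples each had a sample signal of at least 80 and at least 0.5 of the kept spots well above background. Each gene is read from its brightest passing feature. Of 78 member features 74 genes remained, and 47 of these had a value on every array. The others had no value on the first array of cow Non-Pregnant_9778, so their value in that sample is that of its repeat array alone.

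Tests. limma 3.58.1 in R 4.3.3, with the data.table package (1.17.8), fitted 1 linear model per comparison, with Benjamini-Hochberg adjustment over all 14690 features. Pregnancy and tissue used 2 rules: adjusted p under 0.05, and that with a change of 1.5-fold, the methods' threshold. The code was tested on simulated data. Samples of the same cow were treated as independent in the interaction and tissue tests, although deviations of a cow's tissues correlated at 0.11 to 0.87, median 0.61, above 0.1 in 22 of 22 cows, so those tests were repeated with the cow as a replicate block.

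Genes named. Each comparison names the 5 largest rises and falls among the genes called, or the 3 lowest p where fewer than 3 were called, and a list of stalk, reference, S6 kinase substrate and paralog genes. Lists beside the members were ribosome associated and fusion genes, mitochondrial ribosomal proteins, elongation and initiation factors, ribosome biogenesis, mTOR and S6 kinase signalling, eIF2 kinases and interferon-linked brakes, cell division, and markers of epithelium, stroma, leukocytes, endothelium, smooth muscle, red cells and trophoblast; of each the gene called with the largest change each way is named. Some genes that these rules select are not reported here by name, and they remain in the counts and medians. Members and lists were chosen with earlier results of these data known.

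Alternatives. Results were repeated with normexp (offset 50) and loess, no dye normalization, no centring, the deposited value table, a Welch t-test, no filter or a stricter one, the mean over features, members added by reference names, the first array alone, saturated spots left out, embryo size or fertility as a covariate, and cow, slide or scan date as a block, and with each cow left out for embryo size. Leaving out the 2 cows scanned only on the last date (Pregnant_9790, Non-Pregnant_9786; the 4 repeat arrays of that date stay) and the 3 with saturated member spots were alternatives chosen after seeing the data. The deposited value table followed the scanner files closely (lowest correlation 0.982).

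Limits. There was no dye swap, so a dye effect of a feature is in its level. It drops out of a change between groups only where it is the same on every array. Without dye normalization counts moved, and the medians of the interaction and between tissues of cyclic cows turned sign. Most slides held 1 state and 1 tissue. Embryo size compares 7 with 5 cows.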

Additional observations from a re-analysis of the deposited data

Results flagged for a closer look

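Of 380 sets of values in 1 group, 51 (13.4%) held a value far from the rest. The share that chance alone would give was not measured. Groups of different labels share cows, so some samples are listed more than once. No sample was left out for this. What set these samples apart was not tested.

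Cow Non-Pregnant_9786, intercaruncular cyclic, scanned on the last date: member median 0.83, RPL7A 0.44, RPL10 2.29, RPL13A 0.47, RPL17 1.61, RPL19 1.28, RPL23 0.81, RPL26 1.84, RPL35A 0.90, RPL41 1.38, RPS4X 1.00, RPS6 1.85, RPS16 1.07 and RPS19 0.53 were high and RPS9 at -1.30 was low. Its caruncular sample was high for RPL7 (0.86), RPL17 (1.73) and RPS4X (1.31).

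Other caruncular cyclic values: RPL22 at -0.37 in cow Non-Pregnant_9960, RPL23 at -0.23 and RPL35A at -0.28 in cow Non-Pregnant_3811, whose array held saturated spots, and RPL7L1 at 0.27 in cow Non-Pregnant_2952.

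Cow Pregnant_9790, large embryo and sub-fertile, last scan date: in caruncular endometrium a member median of 0.36 and RPS19 at 0.38 among large embryos. In intercaruncular endometrium RPL23 was at 0.31, RPL36 at -0.42 and RPL36A at -0.44 among large embryos, and RPL7L1 at 0.19, RPL14 at -0.44, RPS9 at 0.33, RPS16 at 0.56 and RPS27L at -0.15 among sub-fertile cows.

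Cow Pregnant_3956, small embryo and fertile: in caruncular endometrium a member median of -0.17, RPL17 at -0.43, RPL26 at 0.06 and RPL27 at -0.71 among fertile cows, and RPL41 at -0.31 among small embryos. In intercaruncular endometrium, among small embryos, a member median of 0.01, RPL4 at -0.40, RPL26 at 0.44, RPL41 at 0.43, RPLP0 at 0.01 and RPS18 at 0.11.

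Cow Pregnant_932, fertile: caruncular RPLP0 at -0.01, intercaruncular RPL32 at 0.31 and RPS6 at 0.78. Cow Pregnant_926: intercaruncular RPL7A at 0.41 among large embryos and among fertile cows. Caruncular values of single cows: RPL26 at 0.30 in cow Pregnant_3803 and RPS27A at -1.26 in cow Pregnant_9921 among large embryos, and RPL37A at -0.71 in cow Pregnant_3807 among small embryos.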

How the results depend on the processing

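Counts are members called, with the share of all features called in brackets where a percentage is given. Counts without a percentage are not set against all features here. The cause of each move was not tested.

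Pregnancy, caruncular endometrium, 29 called: 11 without dye normalization (28.2%), 52 with saturated spots left out (27.2%), 0 with slide as a fixed block (0.395%), 19 with slide as a random block (15.5%) and 47 without the 3 cows with saturated member spots (22%). By the 1.5-fold rule, 8 called (9.99%): 5 with normexp and loess, 4 without dye normalization and 17 with saturated spots left out. The count was 5 from the first array alone, 0 with slide as a fixed block and 16 without the cows with saturated spots.

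Pregnancy, intercaruncular endometrium, 23 called: 52 without dye normalization (21.7%), 0 with slide as a fixed block (0.899%) and 7 as a random block (6.95%). By the 1.5-fold rule, 5 called (7.24%): 27 without dye normalization and 0 with the fixed slide block. RPLP2 turned from -0.30 to 0.01 with the fixed slide block.

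Pregnancy effect differing between tissues, 0 called: 1 with cow as a fixed replicate block (1.02%) and 2 as a random replicate block (2.95%). Its median of -0.04 was 0.18 without dye normalization.

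Embryo size, intercaruncular endometrium, 9 called: 1 without dye normalization (2.33%) and 4 by the Welch t-test (1.29%). With 1 cow left out the count ran from 2 (without Pregnant_3805) to 19 (without Pregnant_3956), the median change from -0.20 to -0.13, RPS4X from -0.87 to -0.73, RPS7 from -0.85 to -0.66, RPL17 from -0.66 to -0.55, RPL34 from -0.72 to -0.53 and RPL26 from -0.56 to -0.43. In caruncular endometrium it stayed 0, with medians from -0.15 to 0.02.

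Tissue, pregnant cows, 11 called: 24 without dye normalization (53.7%), and 16 (62.7%) and 18 (62%) with cow as a fixed and a random replicate block. By the 1.5-fold rule, 0 called: 1 without dye normalization. RPL26L1 turned from 0.13 to -0.06 without dye normalization.

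Tissue, cyclic cows, 12 called: 50 without dye normalization (45.1%), 23 with saturated spots left out (36.3%), 27 (55.4%) and 28 (54.4%) with cow as a fixed and a random replicate block, and 25 without the 2 cows scanned only on the last date (43.1%). By the 1.5-fold rule, 1 called: 25 without dye normalization (16.2%), 5 with saturated spots left out, and 2 each with no filter, without the 2 cows scanned only on the last date and without those with saturated spots. Without dye normalization the median turned from 0.07 to -0.52, RPS19 from 0.53 to -0.07, RPL23 from 0.49 to -0.18, RPL35A from 0.46 to -0.20 and RPL26L1 from 0.18 to -0.02.

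Fertility stayed at 0 called in both tissues under all 13 alternatives.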
